A study of Homo sapiens with 6 samples.

Results

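Thrombospondins and other matricellular proteins were followed through 8 genes of SKOV3ip1 cells, THBS1, THBS2, THBS3, SPARC, TNC, SPP1, FN1 and FBN1. They were chosen by gene name from the 58735 genes of the count table, each matched 1 row, and all 8 were among the 15271 genes that passed the filter on low counts. SKOV3ip1 is a human ovarian adenocarcinoma line, and the question of the series is how loss of BARD1, the RING-domain partner of BRCA1, alters pathways of tumour angiogenesis. The 3 BARD1 siRNA libraries came from cells of wild-type genotype, per the labels, that had received 2 µg of siRNA against BARD1 by lipid transfection and were harvested at 48 h. The 3 control siRNA libraries came from the same line, also labelled wild type, given 2 µg of control siRNA in the same way for 48 h. The labels call the material cells in some fields and tumors in others, while the protocols describe a monoculture in plates. Neither the siRNA sequences nor whether all cultures of a group received the same siRNA is given in the sources used here. The titles number the cultures as biological replicates, and a p-value here rests on the spread among those cultures alone. That spread was estimated for each gene with help from the other tested genes.

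Matricellular proteins are secreted into the extracellular matrix, where they act less as scaffold than as signals, binding integrins and other receptors, growth factors, proteases and structural fibres. The thrombospondins are calcium-binding oligomers, of which THBS1 and THBS2 carry type 1 repeats and inhibit the growth of blood vessels through endothelial receptors such as CD36 and CD47, and THBS1 also activates latent TGF-beta. FN1 and FBN1 are the structural partners in the set. Fibronectin forms the first fibrils laid down around many cells, and fibrillin-1 forms the microfibrils that store latent TGF-beta complexes.

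The stretches ahead of the start sites of THBS1, FN1 and TNC are shown because these genes had the largest changes of the set, THBS1 downward and the other two upward. They were copied from the RefSeq promoter table (GRCh38.p14), are written 5′ to 3′ on the strand of the gene, and end before the first base of any annotated transcript. The THBS1 stretch is chr15:39580829-39581078 on the plus strand, the FN1 stretch chr2:215436173-215436318 on the minus strand and the TNC stretch chr9:115118258-115118407 on the minus strand. Capitals mark matches, on either strand, to 7 short motifs that are listed with their background further on.
THBS1: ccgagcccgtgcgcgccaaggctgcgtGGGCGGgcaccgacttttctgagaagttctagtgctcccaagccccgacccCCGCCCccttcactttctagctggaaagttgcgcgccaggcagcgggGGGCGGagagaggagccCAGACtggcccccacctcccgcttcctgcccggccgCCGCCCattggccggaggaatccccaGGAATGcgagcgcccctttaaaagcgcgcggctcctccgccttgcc
FN1: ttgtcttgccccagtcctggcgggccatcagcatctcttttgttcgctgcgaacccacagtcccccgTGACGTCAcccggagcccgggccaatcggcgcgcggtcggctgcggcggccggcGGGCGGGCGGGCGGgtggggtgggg
TNC: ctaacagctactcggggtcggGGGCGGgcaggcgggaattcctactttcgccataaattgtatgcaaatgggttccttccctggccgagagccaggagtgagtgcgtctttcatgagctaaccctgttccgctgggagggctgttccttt

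The libraries held 16661374 to 17743404 gene counts with BARD1 siRNA and 16621108 to 17704645 with control siRNA. BARD1 itself had 96, 110 and 169 counts in BARD1 siRNA libraries and 805, 644 and 887 in control siRNA libraries, without overlap, a 5.98-fold fall on normalised values (log2 fold change -2.58, SE 0.14; edgeR adjusted p = 1.21e-15). Of the 15271 tested genes, 42.3% passed an adjusted p of 0.05, 22.0% as higher and 20.3% as lower with BARD1 siRNA, and in 50.4% the libraries of the groups did not overlap. The 3355 higher and 3107 lower genes became 2815 and 3975 with upper-quartile factors, and 2852 and 3906 when scaled by library size alone. The summed level of 12 markers of epithelial and ovarian carcinoma cells was 4411 to 4525 CPM (counts scaled to a fixed library total with TMM factors) with BARD1 siRNA and 4313 to 4708 CPM with control siRNA. These markers moved both ways, and of the 10 tested 2 rose and 4 fell. KRT7 fell (log2 fold change -0.98; edgeR adjusted p = 4.47e-22), as did KRT19 (log2 fold change -0.60; edgeR adjusted p = 2.58e-14), while PAX8 rose (log2 fold change 0.75; edgeR adjusted p = 2.64e-19), as did KRT18 (log2 fold change 0.40; edgeR adjusted p = 1.25e-09). EPCAM and ERBB2 were also lower, and each lost its call in 2 of the settings that leave out a library. Their part in the changes of the 8 genes was not tested. Of the 12 markers, 9 were above 1 CPM in every library, while CDH1 averaged 0.338 CPM with BARD1 siRNA and 0.726 CPM with control siRNA. Endothelial markers summed to at most 0.800 CPM with BARD1 siRNA and 1.77 CPM with control siRNA, with 1 of 8 at 0 in every library. Leukocyte markers summed to at most 1.23 CPM with BARD1 siRNA and 1.76 CPM with control siRNA, with 4 of 8 at 0. Platelet markers, listed because platelets carry much THBS1, summed to at most 4.99 CPM with BARD1 siRNA and 5.38 CPM with control siRNA, with 3 of 6 at 0.

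THBS1 and FBN1 fell with BARD1 siRNA, while TNC, FN1 and SPP1 rose, and SPARC, THBS2 and THBS3 did not pass the test. That is 3 members higher, 2 lower and 3 not called, or 62.5% called beside 42.3% of all tested genes. The members and the gene lists below were chosen with earlier results of these data known, so a share above that background is only a description. The 5 called members were also the 5 whose libraries did not overlap between the groups, 62.5% beside 50.4% of all tested genes. The median log2 fold change of the 8 was 0.15, against -0.01 over all tested genes. With the direction differing from member to member, that median describes none of them, and the genes are given one by one.

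**Figure D1:**
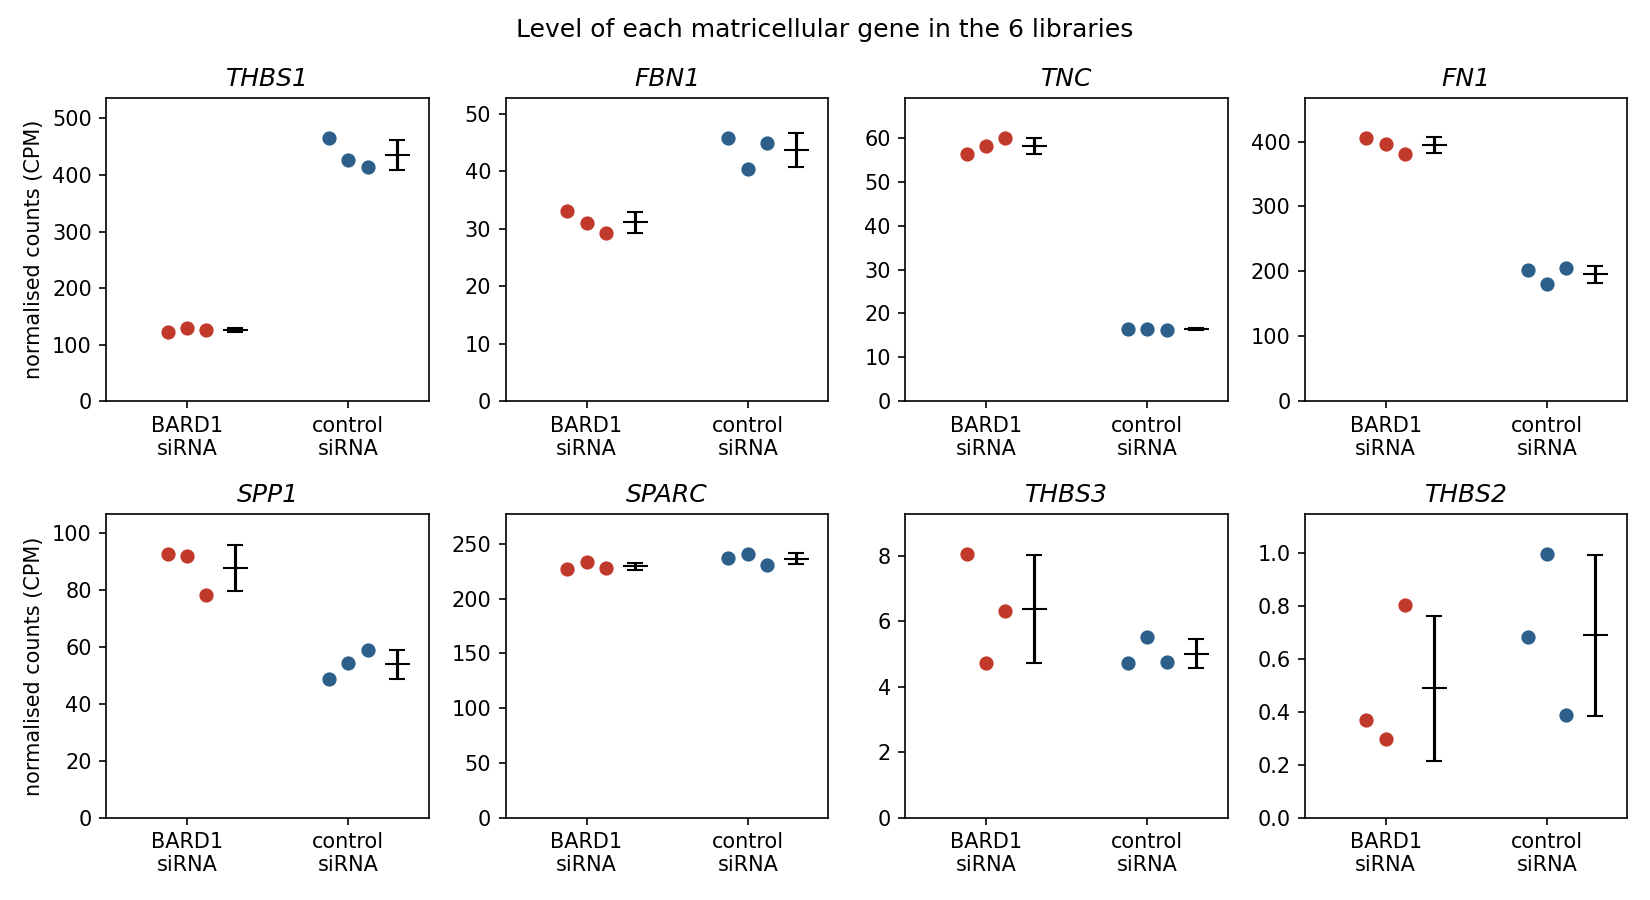
Normalised counts (CPM, linear axis from 0) of each of the 8 genes; every point is a library, with BARD1 siRNA on the left and control siRNA on the right of each panel, and the bars give mean and SD over 3 libraries. The groups are apart for THBS1, FBN1, TNC, FN1 and SPP1 and overlap for SPARC, THBS3 and THBS2.

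Among the thrombospondins, THBS1 (ENSG00000137801, GRCh38 chromosome 15, 39581079 to 39599466, plus strand) encodes the secreted trimer best known as an inhibitor of angiogenesis. It had 122, 129 and 126 CPM in BARD1 siRNA libraries, against 466, 426 and 415 CPM in control siRNA libraries. Every BARD1 siRNA library lay far below every control siRNA library, and the spread within each group was small beside the gap. The means were 126 ± 3.58 CPM with BARD1 siRNA and 436 ± 27.0 CPM with control siRNA (SD, n = 3 each). THBS1 was 3.46-fold lower (log2 fold change -1.79, SE 0.05; edgeR quasi-likelihood test, Benjamini-Hochberg adjusted p = 1.97e-33), which placed it 62nd from the lowest among the log2 fold changes of 15271 genes. The promoter shown above holds 4 GC boxes, 1 TEAD core and 1 SMAD core.

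THBS2 (ENSG00000186340, chromosome 6, 169215780 to 169254044, minus strand), the other thrombospondin with type 1 repeats, was close to the limit of detection. It had 6, 5 and 14 counts in BARD1 siRNA libraries and 12, 17 and 7 in control siRNA libraries, or 0.490 ± 0.275 and 0.690 ± 0.305 CPM (SD, n = 3 each). The groups overlapped, and with 25 and 36 reads in all the log2 fold change of -0.47 (SE 0.60; edgeR adjusted p = 0.562) has an approximate 95% interval of -1.64 to 0.69. At this depth neither a direction nor the lack of a change can be read for THBS2.

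THBS3 (ENSG00000169231, chromosome 1, 155195588 to 155209051, minus strand) encodes a pentamer without type 1 repeats. It had 8.06, 4.74 and 6.32 CPM in BARD1 siRNA libraries, against 4.73, 5.52 and 4.77 CPM in control siRNA libraries. The lowest BARD1 siRNA library fell inside the range of the control siRNA libraries, and the BARD1 siRNA group spread more widely (SD 1.66 against 0.446 CPM). The log2 fold change of 0.35 (SE 0.21; edgeR adjusted p = 0.187) has an approximate 95% interval of -0.06 to 0.76. Leaving out BARD1 siRNA replicate 1 took the value to 0.14, and leaving out replicate 2 took it to 0.52. Reads of THBS3 are the least certain of the set. Its exons share 1027 bases, 22.2% of their length, with the antisense AC234582.1, which had 37 counts over the 6 libraries beside 584 of THBS3. They share 146 bases with MTX1, a mitochondrial import gene on the opposite strand, which had 687 counts with BARD1 siRNA and 821 with control siRNA, and no source used here gives the strand setting of the counting. Other members share exon bases with scarce genes of the opposite strand. For THBS1 (29284 counts) these are FSIP1 (448 bases, 138 counts) and AC037198.2 (411 bases, 0 counts). For SPARC (24015 counts) it is CLMAT3 (381 bases, 9 counts), and for TNC (3807 counts) DEC1 (129 bases, 2 counts).

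THBS1 made up most of the thrombospondin mRNA in both groups. Per length, it was 88.1%, 93.0% and 90.2% of the summed TPM (counts divided by gene length and scaled to a fixed total) of the 3 thrombospondin members in BARD1 siRNA libraries, against 97.8%, 97.2% and 97.6% in control siRNA libraries. The remaining thrombospondin genes outside the set were scarce. THBS4 averaged 1.78 ± 0.177 CPM with BARD1 siRNA and 1.35 ± 0.995 CPM with control siRNA (log2 fold change 0.39, SE 0.42; edgeR adjusted p = 0.489). COMP, the cartilage thrombospondin, had 8 and 4 reads in all and was not tested.

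TNC (ENSG00000041982, chromosome 9, 115019578 to 115118257, minus strand) encodes tenascin-C, a hexameric glycoprotein that loosens the adhesion of cells to fibronectin and is abundant in tumour stroma and wounds. It had 56.4, 58.2 and 60.0 CPM in BARD1 siRNA libraries, against 16.5, 16.6 and 16.2 CPM in control siRNA libraries. The groups were wide apart and each was tight, with a coefficient of variation of 3.15% with BARD1 siRNA and 1.13% with control siRNA. TNC rose 3.55-fold (log2 fold change 1.83, SE 0.09; edgeR adjusted p = 1.45e-23). Its log2 fold change was the 254th highest of 15271 and the largest among the 8 genes. Of the promoter shown above, 1 GC box is marked, and the only other match lies nearer the start.

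SPP1 (ENSG00000118785, chromosome 4, 87975650 to 87983426, plus strand) encodes osteopontin, an acidic phosphoprotein that binds integrins through its RGD site and also binds CD44. It had 92.7, 92.0 and 78.2 CPM in BARD1 siRNA libraries, against 48.6, 54.2 and 58.9 CPM in control siRNA libraries. The lowest BARD1 siRNA library remained above the highest control siRNA library, although SPP1 varied more among replicates than TNC or FN1. SPP1 rose 1.63-fold (log2 fold change 0.70, SE 0.07; edgeR adjusted p = 4.19e-11).

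SPARC (ENSG00000113140, chromosome 5, 151661096 to 151687165, minus strand) encodes osteonectin, which binds calcium and collagen and limits cell spreading. It had 227, 233 and 228 CPM in BARD1 siRNA libraries, against 237, 241 and 231 CPM in control siRNA libraries. The groups overlapped, with means of 229 ± 3.47 and 236 ± 5.09 CPM (SD, n = 3 each). The log2 fold change was -0.04 (SE 0.05; edgeR adjusted p = 0.524) with an approximate 95% interval of -0.14 to 0.06, an interval that does not reach the change of any of the 5 called members. SPARC did not pass the test with other scalings either, at -0.11 and an adjusted p of 0.0722 with upper-quartile factors in edgeR.

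FN1 (ENSG00000115414, chromosome 2, 215360440 to 215436172, minus strand) encodes fibronectin, the RGD-bearing glycoprotein whose fibrils are assembled by cells through integrins. It had 406, 396 and 381 CPM in BARD1 siRNA libraries, against 202, 181 and 205 CPM in control siRNA libraries. The groups did not overlap, and the lowest BARD1 siRNA library was well above the highest control siRNA library. FN1 rose 2.01-fold (log2 fold change 1.01, SE 0.05; edgeR adjusted p = 5.78e-23). Its log2 fold change was the 733rd highest of 15271. The stretch shown above carries a full CRE palindrome and a run of overlapping GC boxes.

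FBN1 (ENSG00000166147, chromosome 15, 48408306 to 48645849, minus strand) encodes fibrillin-1. It had 33.1, 30.9 and 29.3 CPM in BARD1 siRNA libraries, against 45.8, 40.3 and 44.9 CPM in control siRNA libraries. The groups did not overlap, and on the log2 scale they lay closer together than those of the 4 other called members. FBN1 fell 1.41-fold (log2 fold change -0.49, SE 0.09; edgeR adjusted p = 7.21e-06).

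Fibroblasts also make THBS1, FBN1, FN1 and TNC, so their markers are given beside these results. The 8 fibroblast markers summed to 17.1 to 23.1 CPM in BARD1 siRNA libraries and 26.1 to 27.6 CPM in control siRNA libraries, lower in every BARD1 siRNA library, and COL1A1 and COL3A1 were the 2 of the 8 above 1 CPM in every library. None of the 8 was at 0 in all libraries. COL3A1, a fibrillar collagen, fell with BARD1 siRNA to 10.8 ± 2.00 CPM, against 19.2 ± 0.540 CPM with control siRNA (SD, n = 3 each; log2 fold change -0.83, SE 0.13; edgeR adjusted p = 7.26e-07). COL1A1 went the other way without passing the test (log2 fold change 0.46, SE 0.20; edgeR adjusted p = 0.0595), and DCN averaged 0.514 CPM with BARD1 siRNA and 0.554 CPM with control siRNA. Their part in the change of THBS1 and FBN1 was not tested. In bulk RNA, fewer cells of a type and less RNA per cell cannot be told apart.

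**Figure D2:**
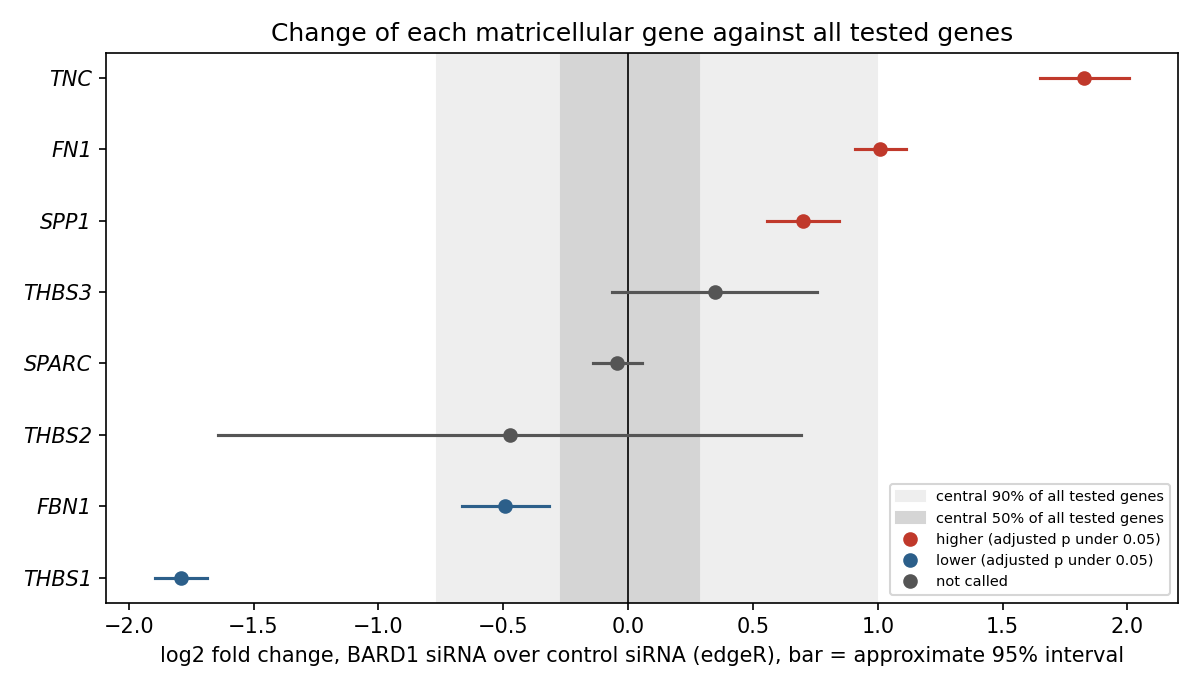
Log2 fold change of each gene, BARD1 siRNA over control siRNA, from edgeR, with bars of the approximate 95% interval and shaded bands for the central part of all 15271 tested genes. THBS1 at -1.79 and TNC at 1.83 lie at opposite ends, FN1 (1.01) and SPP1 (0.70) are positive, FBN1 is at -0.49, and the bars of SPARC, THBS3 and THBS2 cross 0.

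Levels of different genes were compared per length, as TPM. With BARD1 siRNA the order was SPARC (164 ± 2.57 TPM), SPP1 (131 ± 12.5), FN1 (78.9 ± 2.73), THBS1 (47.6 ± 1.31), TNC (20.9 ± 0.599), FBN1 (6.71 ± 0.424), THBS3 (4.78 ± 1.25) and THBS2 (0.264 ± 0.147), as mean TPM and SD over 3 libraries. With control siRNA it was SPARC (176 ± 3.60 TPM), THBS1 (171 ± 10.1), SPP1 (83.6 ± 8.18), FN1 (40.7 ± 2.71), FBN1 (9.80 ± 0.651), TNC (6.13 ± 0.0621), THBS3 (3.90 ± 0.350) and THBS2 (0.387 ± 0.171). SPARC and THBS1 overlapped with control siRNA, so their order there is not resolved, and no other neighbours overlapped in either group. THBS1 thus stood beside SPARC in control siRNA cells and behind SPARC, SPP1 and FN1 in BARD1 siRNA cells, while TNC and FBN1 exchanged places. The order was the same with the longest annotated transcript as the length.

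The make-up of the set differed between the groups, while which group had the larger total depended on the length and scaling used. The summed TPM of the 8 genes was 463, 464 and 436 in BARD1 siRNA libraries, against 496, 489 and 490 in control siRNA libraries, or 454 ± 16.2 and 492 ± 3.91 (SD, n = 3 each). THBS1 was 10.5 ± 0.459% of that sum with BARD1 siRNA and 34.8 ± 1.79% with control siRNA. SPARC held a like share in both groups, 36.2 ± 1.10% with BARD1 siRNA and 35.8 ± 0.814% with control siRNA. SPP1 was 28.7 ± 1.78% with BARD1 siRNA and 17.0 ± 1.77% with control siRNA, and FN1 was 17.4 ± 0.256% with BARD1 siRNA and 8.28 ± 0.525% with control siRNA. TNC was 4.61 ± 0.289% of the sum with BARD1 siRNA and 1.25 ± 0.0172% with control siRNA. The ratio of FN1 to THBS1 in TPM was 1.76, 1.62 and 1.60 in BARD1 siRNA libraries and 0.229, 0.225 and 0.262 in control siRNA libraries, so FN1 exceeded THBS1 per length in each BARD1 siRNA library and in no control siRNA library. These sums, shares and ratios depend on the length used. With the longest annotated transcript as the length, the ratio was 2.66 ± 0.138 with BARD1 siRNA and 0.382 ± 0.0324 with control siRNA (SD, n = 3 each). With that length SPARC was 33.3 ± 1.08% of the sum with BARD1 siRNA and 35.2 ± 0.892% with control siRNA. The sum itself, as CPM per kilobase, was then 186 ± 6.35 with BARD1 siRNA and 181 ± 1.65 with control siRNA, so that the direction of the total is not fixed. CPM carry the TMM factors and TPM do not, so the sums differ in scaling as well as length, and these were not separated.

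**Figure D3:**
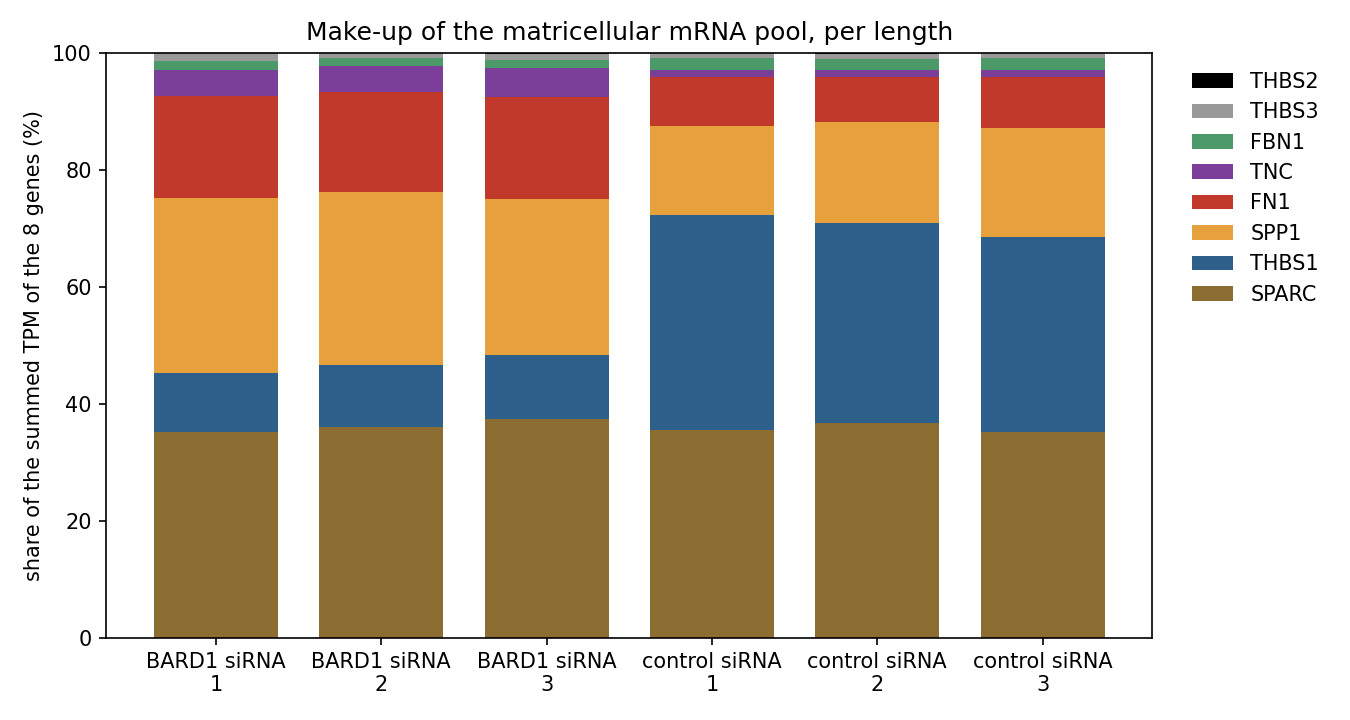
Share of each gene in the summed TPM of the 8 genes (percent, stacked to 100) in each library, BARD1 siRNA libraries on the left and control siRNA libraries on the right. THBS1 takes 10.0% to 10.9% with BARD1 siRNA and 33.3% to 36.8% with control siRNA, while SPARC stays between 35.2% and 37.4% in all 6 libraries.

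The tested protein-coding genes whose pattern over the 6 libraries was nearest to that of THBS1, by root mean square distance of centred log2 CPM among 12779 genes, were CDH16 (0.103), ID1 (0.120) and CD24 (0.140). CDH16 is a cadherin, ID1 an inhibitor of helix-loop-helix transcription factors and CD24 a mucin-like surface protein with near-identical copies in the genome, so its reads are uncertain. Their log2 fold changes were -1.65, -1.74 and -1.99. Nearest to TNC were ZFP36L1, an RNA-binding protein that promotes mRNA decay (distance 0.0390, log2 fold change 1.85), the cytokine LIF (0.0457 and 1.82) and the spermine oxidase SMOX (0.0611 and 1.75). These distances describe likeness over 6 libraries in 2 groups, and genes with a like fold change are near by construction.

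Other matricellular genes moved both ways. Of 28 listed, 14 were tested, of which 3 rose and 3 fell, 42.9% beside 42.3% of all tested genes, with a median log2 fold change of -0.06 against -0.01. LGALS3, the galactoside-binding lectin galectin-3, rose with BARD1 siRNA to 75.9 ± 3.84 CPM, against 49.2 ± 1.28 CPM (log2 fold change 0.63; edgeR adjusted p = 1.93e-10). NOV, which encodes the CCN family protein CCN3, averaged 25.6 ± 1.21 CPM with BARD1 siRNA and 17.2 ± 0.721 CPM with control siRNA (log2 fold change 0.58; edgeR adjusted p = 1.40e-05). Its relatives differed from each other. CTGF, or CCN2, fell to 14.3 ± 0.909 CPM with BARD1 siRNA, against 20.5 ± 1.39 CPM (log2 fold change -0.52; edgeR adjusted p = 0.000297), and CYR61, or CCN1, had 122 ± 6.90 CPM against 106 ± 1.18 CPM (log2 fold change 0.20; edgeR adjusted p = 0.00561). The call of CYR61 was lost with upper-quartile factors, with library size alone and without BARD1 siRNA replicate 3 (highest adjusted p of edgeR 0.0666). TGFBI, a collagen-binding protein induced by TGF-beta, fell to 366 ± 12.6 CPM with BARD1 siRNA, against 423 ± 12.5 CPM with control siRNA (log2 fold change -0.21; edgeR adjusted p = 0.000364).

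Among the receptors through which these proteins act, more of the called genes rose than fell. Of 31 listed, 26 were tested, 13 rose and 5 fell, 69.2% beside 42.3%, with a median log2 fold change of 0.14 against -0.01. By sign alone, 14 of the 26 had a positive log2 fold change. The list was chosen with earlier results of these data known, so its share is only a description. With upper-quartile factors or library size alone the 5 lower receptors became 8, with 13 still higher. ITGA5, the alpha chain of the main fibronectin receptor, rose to 209 ± 5.74 CPM with BARD1 siRNA, against 75.1 ± 2.53 CPM with control siRNA (log2 fold change 1.48; edgeR adjusted p = 2.72e-28). The beta chain gene ITGB1, from the same list, did not pass the test (log2 fold change -0.08; edgeR adjusted p = 0.143). SDC4, the syndecan that assists the fibronectin receptor at adhesion sites, rose to 525 ± 12.4 CPM, against 263 ± 7.66 CPM (log2 fold change 1.00; edgeR adjusted p = 4.31e-24). The other syndecans of the list fell. Their log2 fold changes were -0.34 for SDC1, -0.38 for SDC2 and -0.26 for SDC3 (edgeR adjusted p = 6.00e-08, 1.48e-06 and 0.000228). ITGB3, whose product pairs with the alpha V chain to bind osteopontin and vitronectin, had 9.25 ± 1.58 CPM with BARD1 siRNA and 4.83 ± 0.779 CPM with control siRNA (log2 fold change 0.93; edgeR adjusted p = 4.97e-05).

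ITGB8, a partner of the alpha V chain that activates latent TGF-beta, fell to 14.7 ± 0.748 CPM with BARD1 siRNA, against 28.4 ± 1.82 CPM with control siRNA (log2 fold change -0.95; edgeR adjusted p = 1.91e-10). LRP1, the endocytic receptor that clears thrombospondins, rose to 65.9 ± 5.25 CPM, against 35.7 ± 1.48 CPM (log2 fold change 0.88; edgeR adjusted p = 1.52e-13). The receptors of THBS1 were looked up after their values were seen. CALR, which works with LRP1 in binding THBS1, rose (log2 fold change 0.80; edgeR adjusted p = 4.66e-21), and CD47 had 208 ± 4.19 CPM with BARD1 siRNA and 170 ± 8.46 CPM with control siRNA (log2 fold change 0.29; edgeR adjusted p = 7.61e-06). CACNA2D1, from the same receptor list, went the other way. It was called lower with BARD1 siRNA under all 16 alternative settings (log2 fold change -0.52 to -0.38). CD36 had 2, 1 and 3 counts in BARD1 siRNA libraries and 2, 7 and 0 in control siRNA libraries and was not tested. CD44, a receptor of osteopontin, did not pass the test (log2 fold change 0.06; edgeR adjusted p = 0.297).

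Among enzymes that crosslink and process the matrix, likewise, more of the called genes rose than fell. Of 27 listed, 24 were tested, 12 rose and 4 fell, 66.7% beside 42.3%, with a median log2 fold change of 0.27 against -0.01. By sign alone, 15 of the 24 had a positive log2 fold change. As with the receptors, the list was chosen with earlier results known. TGM2, a transglutaminase that crosslinks fibronectin, rose to 255 ± 6.46 CPM with BARD1 siRNA, against 140 ± 8.65 CPM with control siRNA (log2 fold change 0.86; edgeR adjusted p = 1.98e-19). The lysyl oxidases LOX (log2 fold change 0.91; edgeR adjusted p = 2.31e-05) and LOXL2 (log2 fold change 0.54; adjusted p = 1.21e-13), which crosslink collagen and elastin, rose as well. So did the collagen prolyl hydroxylase P4HA2 (log2 fold change 0.62; edgeR adjusted p = 3.12e-10). The enzymes that glycosylate type 1 repeats did not move together. POFUT2, which adds the fucose, rose to 31.7 ± 0.853 CPM, against 19.3 ± 1.37 CPM (log2 fold change 0.72; edgeR adjusted p = 4.37e-08), whereas B3GLCT, which extends it and was singled out after its values were seen, fell to 24.4 ± 0.257 CPM, against 29.6 ± 0.473 CPM (log2 fold change -0.28; edgeR adjusted p = 0.0169). The lower genes were TLL2, PLOD2, B3GLCT and HTRA1, and their number was 2 without BARD1 siRNA replicate 1. TLL2 lost its call there, in DESeq2, without BARD1 siRNA replicate 3 and without control siRNA replicate 2 (adjusted p up to 0.154). HTRA1 lost it there and without control siRNA replicate 3 (edgeR adjusted p up to 0.0952).

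Microfibril and elastic fibre genes, the partners of FBN1, moved both ways, with a share of calls near the background. Of 24 listed, 19 were tested, 3 rose and 4 fell, 36.8% beside 42.3%, with a median log2 fold change of -0.07 against -0.01. LTBP2, a fibrillin-binding relative of the latent TGF-beta binding proteins, rose to 21.6 ± 1.52 CPM with BARD1 siRNA, against 12.5 ± 1.07 CPM with control siRNA (log2 fold change 0.79; edgeR adjusted p = 2.72e-07). THSD4, which promotes assembly of fibrillin-1 microfibrils, had 25.5 ± 1.06 CPM with BARD1 siRNA and 15.5 ± 2.29 CPM with control siRNA (log2 fold change 0.72; edgeR adjusted p = 6.52e-07). MFAP5, a microfibril component, fell to 27.9 ± 2.54 CPM with BARD1 siRNA, against 43.3 ± 3.83 CPM (log2 fold change -0.63; edgeR adjusted p = 1.03e-07), and FBLN5, an elastic fibre protein, fell to 3.32 ± 0.974 CPM, against 5.90 ± 0.790 CPM (log2 fold change -0.83; edgeR adjusted p = 0.00286). LTBP3 was lower (log2 fold change -0.37; edgeR adjusted p = 0.00622) but lost its call without BARD1 siRNA replicate 3 or without control siRNA replicate 2, at an adjusted p of up to 0.140 in edgeR. FBN2, another fibrillin, had 7.72 ± 0.345 CPM with BARD1 siRNA and 9.17 ± 1.73 CPM with control siRNA (log2 fold change -0.25; edgeR adjusted p = 0.244).

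Genes of proteins that share the type 1 repeat with THBS1 included 2 large rises. Those already placed in the lists above, such as ADAMTS1, THSD4 and the CCN genes, were not counted here. Of 41 listed, 20 were tested, 4 rose and 2 fell, 30.0% beside 42.3%, with a median log2 fold change of 0.19 against -0.01. With upper-quartile factors or library size alone the split was 3 higher and 3 lower. The count rested on single libraries, with 10 called without control siRNA replicate 2 (7 higher) and 2 higher without BARD1 siRNA replicate 3, and 1 lower without control siRNA replicate 1. The secreted protease ADAMTS9 rose to 98.4 ± 6.03 CPM with BARD1 siRNA, against 30.4 ± 3.45 CPM with control siRNA (log2 fold change 1.69; edgeR adjusted p = 1.40e-24), and the netrin receptor UNC5B to 17.4 ± 1.72 CPM, against 7.11 ± 0.233 CPM (log2 fold change 1.29; edgeR adjusted p = 6.43e-11). ADAMTS15 fell to 8.80 ± 0.556 CPM with BARD1 siRNA, against 13.8 ± 2.29 CPM (log2 fold change -0.65; edgeR adjusted p = 0.000299). UNC5A (log2 fold change 0.46; edgeR adjusted p = 0.0131) lost its call without BARD1 siRNA replicate 3, with an adjusted p of 0.0509.

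**Figure D4:**
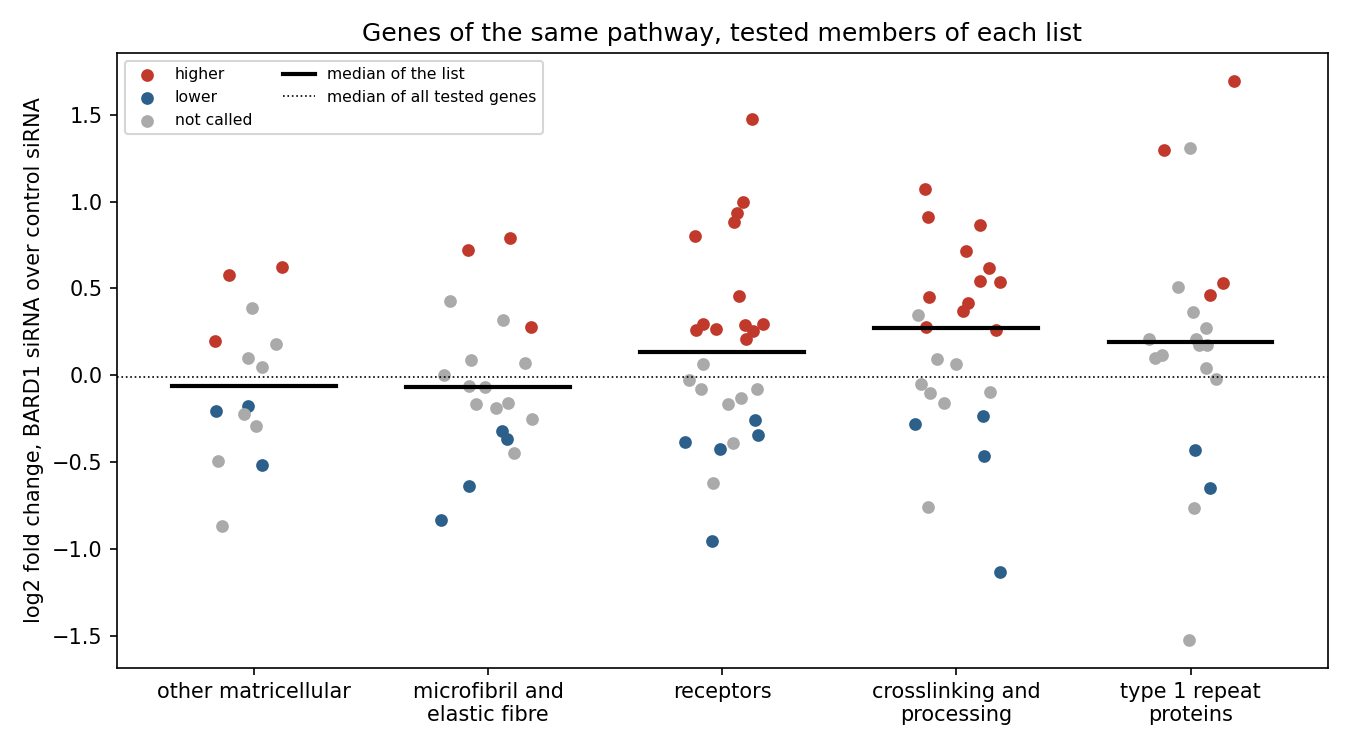
Log2 fold change (BARD1 siRNA over control siRNA, edgeR) of the tested genes of 5 lists around the 8 members; each point is a gene, coloured by whether it passed an adjusted p of 0.05, thick lines are list medians and the dotted line is the median of all tested genes. Receptors and crosslinking enzymes have more called genes above 0 than below (13 against 5 and 12 against 4), and the other lists have 3 to 4 above and 2 to 4 below.

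The promoter windows, 300 bases from 250 before to 50 after each RefSeq start, were searched on both strands in 35116 windows of 27305 genes. The motifs were AP-1 (TGANTCA, in 7.71% of windows), CRE (TGACGTCA, 1.85%), the composite C/EBP-ATF element (TTGCATCA, 0.866%), the TEAD core (GGAATG, 14.0%), the SMAD core (CAGAC, 45.3%), the GC box (GGGCGG, 45.0%) and TATAAA (11.5%). No 2 of these spell the same letters, although GC boxes overlap one another in FN1. The 8 genes had 9 windows, since THBS3 has a pair of starts. None held the AP-1 or the C/EBP-ATF letters. FN1 held the CRE letters, from -183 to -176, the same on both strands, and 6 GC boxes, in a window of 76.7% G and C. THBS1 held the TEAD core from -46 to -41, the SMAD core from -108 to -104 and 4 GC boxes. The TEAD core also stood in THBS2, with 2 matches, and in SPARC and FBN1, so it was found in genes that fell and in genes that were not called. TNC held 1 SMAD core and 1 GC box and SPP1 held 2 SMAD cores. The SMAD core also stood in THBS2, with 3 matches, and in SPARC, so it too was found in genes that were not called. GC boxes were also present in each window of THBS3, and TATAAA in THBS2. A match of this kind is a description of letters in a window.

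**Figure D5:**
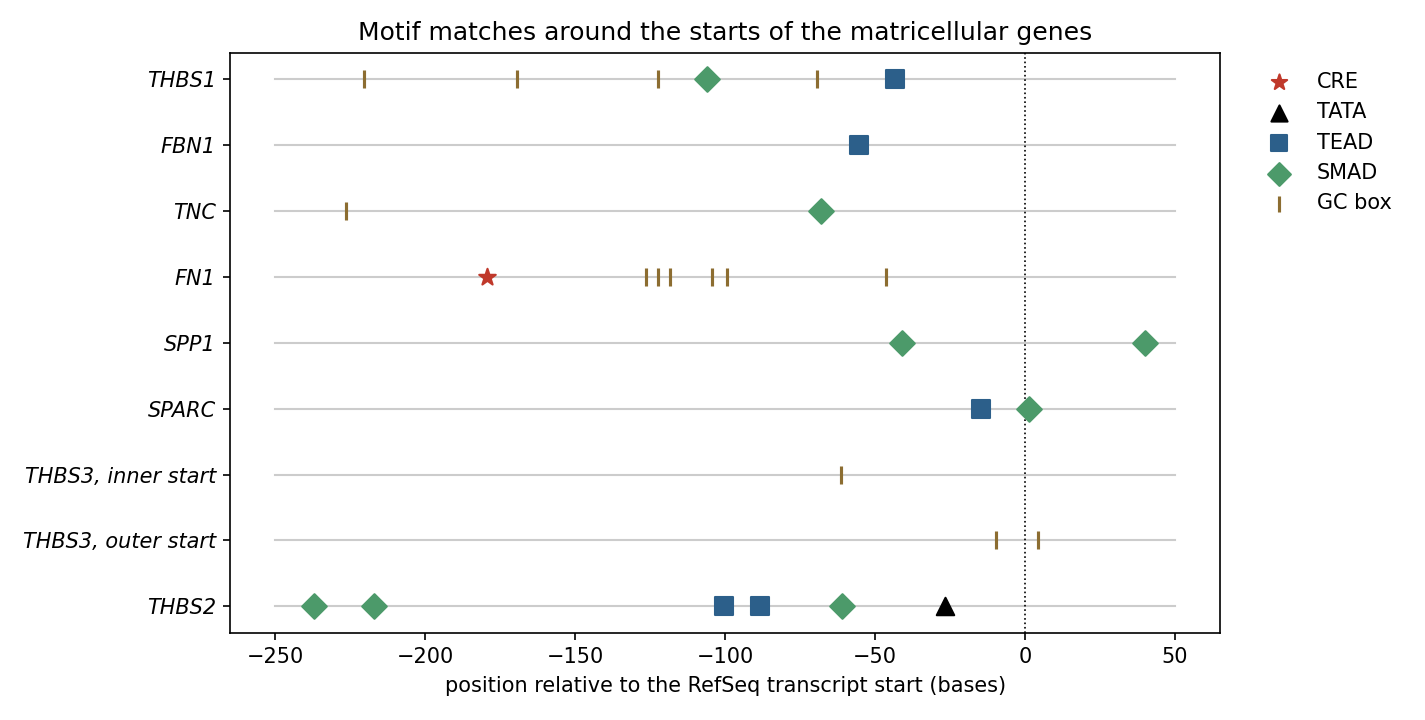
Positions of motif matches in the 9 promoter windows of the 8 genes, in bases relative to the RefSeq transcript start, which is the dotted line at 0; each marker is a match and its shape and colour give the motif. GC boxes gather in THBS1 (4) and FN1 (6), the only CRE is in FN1, and TEAD cores stand in THBS1, THBS2, SPARC and FBN1.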

How the data were processed

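RNA from 6 cultures of SKOV3ip1 cells was measured by poly(A) RNA-seq. The deposited values are raw, unscaled counts for each gene. CASAVA, HISAT2 and the GRCh38 (hg38) build are named, per the submitters' processing notes. No source used here gives tool versions, the counting program, its annotation or its strand setting. The deposited gene length equals the summed exon length of GENCODE 29 for all 8 genes. Of the columns of per-sample values, 0 were left unused.

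The members and gene lists were chosen with earlier results of these data known. The edgeR 4.0.16 robust quasi-likelihood test (R 4.3.3) was run on the deposited counts with TMM factors, library sizes summed over tested genes and the group alone as design. filterByExpr (minimum count 10, total 15) left 15271 of 29419 genes that had a count. P-values are two-sided, adjusted by Benjamini-Hochberg over those tested genes, with a threshold of 0.05. CPM and TPM were computed from the deposited counts. Fold changes are on a log2 scale from those deposited counts; their SE is the fold change over the square root of F, and the approximate 95% intervals rest on that SE. One count was worth 0.0555 to 0.0616 CPM, and the biological coefficient of variation was 7.19%. The pipeline was also run on simulated counts in which a far smaller share of genes changed than was called here. That run does not check the calls or the scaling under so widespread a change.

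Named were the members, genes that share exon bases with them, and the 3 nearest patterns to THBS1 and TNC. Of each list, up to 5 called genes with the largest change whose mean log2 CPM reached 2 were named. Genes outside this rule were chosen after their values were seen. Alternatives were RLE, upper-quartile and no scaling, DESeq2 1.42.0, limma-voom (limma 3.58.1), other filters, protein-coding genes alone, no robust estimation, a replicate block and each library left out. Added after the data were seen were the longest transcript as the length and a minimum of 1.5-fold. Protein sequences were not analysed here.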

Additional observations from a re-analysis of the deposited data

How the results depend on the processing

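The members kept the sign of their fold change and their side of the threshold under each setting in which they were tested, which was every setting except, for THBS2, the filter of 1 CPM in 3 libraries that removed it. Log2 fold changes were -1.85 to -1.74 for THBS1, 1.76 to 1.85 for TNC, 0.95 to 1.04 for FN1, 0.63 to 0.77 for SPP1 and -0.56 to -0.45 for FBN1 (highest adjusted p of FBN1 0.000291, edgeR, limma or DESeq2). THBS2 ranged from -1.03 to -0.12, THBS3 from 0.14 to 0.52 and SPARC from -0.11 to -0.03, with lowest adjusted p-values of 0.305, 0.0604 and 0.0722. Asking also for a change of at least 1.5-fold left 1 member lower, since FBN1 dropped out. Under upper-quartile scaling, as under library size alone, 8 receptors were lower in place of 5. Leaving out each library in turn gave 2 to 4 lower crosslinking and processing enzymes (4 with all libraries), and 4 to 10 called type 1 repeat genes (6), of which 2 to 7 were higher (4) and 1 to 3 lower (2). By CPM without division by length, THBS1 ranked 3 with BARD1 siRNA and 1 with control siRNA, SPARC 2 and 2, SPP1 4 and 4, and FN1 1 and 3, since long genes then count for more. The replicate block changed no call of a member (5 called, 3 higher and 2 lower) and left 6512 of all tested genes called. Same-numbered libraries deviated from their group means with correlations of -0.00906, -0.0149 and -0.0218, and no BARD1 siRNA library correlated best with the control siRNA library of its own number, so the numbers were not taken as a pairing. The smallest counts, those of THBS2, limit what can be seen: 3 libraries a group leave an interval more than 2 log2 units wide.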
